A study of Mus musculus with 12 samples.

Results

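Annexins are proteins that bind acidic phospholipids in the presence of calcium. Each has a conserved core of annexin repeats, which docks on the membrane, and an N-terminal head that differs between members and carries most of their partner and phosphorylation sites. They take part in the sealing of torn plasma membranes, in vesicle and endosome traffic, in the link between membranes and cortical actin and, outside the cell, in fibrinolysis and the control of inflammation. The annexin family is described here in embryonic fibroblasts that lack or carry Pak1, a kinase of the actin cytoskeleton, with and without ionizing radiation (IR). The members were the probe sets annotated with exactly 1 gene symbol that was Anxa1, Anxa2, Anxa3, Anxa4, Anxa5, Anxa6, Anxa7, Anxa8 or Anxa11. All 9 genes were found with 1 probe set each, 9 of 16755 probe sets in all, and the gene ID of all 9 matched the mouse gene table under the same symbol.

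Murine embryonic fibroblasts (MEFs) were profiled on Affymetrix Mouse Exon 1.0 ST arrays in 4 groups of 3 arrays: Pak1 knock-out (KO) cells, wild-type (WT) cells, irradiated knock-out (KO-IR) cells and irradiated wild-type (WT-IR) cells. The knock-out is a whole-body deletion in C57Bl6J mice, the cells came from embryos of day 13.5, and KO and WT cultures alike had been immortalised with SV40 T antigen, so no group is a primary culture and all 4 carry the viral protein. KO and WT cells were processed like the irradiated ones without exposure. Neither the labels nor the methods give the total dose or the time between exposure and RNA extraction. Replicates are called biological in the labels, but nothing says that they were separate cell lines or embryos, so that a p-value measures the spread between these arrays. KO and WT may each be a single immortalised line, and a difference between lines cannot then be told apart from the genotype. Among the most down-regulated genes in KO against WT cells the study lists Eif2s3y, Ddx3y and Uty, which are Y-linked. Whether the KO and WT cells differ in sex was not tested here. Such a difference could not be told apart from the genotype either. Pak1 itself was not analysed here, and the genotype rests on the labels and on the study's Western blot of PAK1 in WT and KO cells.

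Values are on the log2 scale and relative: in the deposited table the median of every probe set across the 12 arrays is 0. A value of 0 is thus the median level of that gene in the study, a difference of 1 is a doubling, and the levels of 2 different annexins cannot be set against each other. Each gene has 1 value per array, which does not separate its exons or isoforms. Array medians lay between -0.0201 and 0.018, and each array correlated with the others of its group at a mean of 0.836 to 0.917. Of the 12 fibroblast markers, 3 were higher and 5 lower in KO than in WT cells. Of all probe sets, 21.5% were higher and 21.7% lower. Of the called markers, Pdgfra, a growth factor receptor of mesenchymal cells, had a log2 fold change of -2.33. Prrx1, a mesenchymal transcription factor, had -2.10 and Thy1, a surface glycoprotein, had 1.29. The vimentin gene Vim differed by 0.05 (adjusted p = 0.233). Because of the centring, no marker can be called present or absent.

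Promoter windows are shown for 3 members: Anxa8, which had the largest difference between the genotypes, Anxa1, which had the next largest, and Anxa2, which had the smallest in KO against WT cells. Each runs over 300 bases, 250 before to 50 after the RefSeq start site, in the GRCm38.p6 build: Anxa8 at chr14:34085729-34086028 on the plus strand, Anxa1 at chr19:20390622-20390921 on the minus strand and Anxa2 at chr9:69453433-69453732 on the plus strand. Capitals mark matches, on either strand, to a TATA box (TATAAA), a GC box (GGGCGG), an AP-1 site (TGANTCA) or the p53 half-site, and no matches overlapped in these windows.
Anxa8 promoter: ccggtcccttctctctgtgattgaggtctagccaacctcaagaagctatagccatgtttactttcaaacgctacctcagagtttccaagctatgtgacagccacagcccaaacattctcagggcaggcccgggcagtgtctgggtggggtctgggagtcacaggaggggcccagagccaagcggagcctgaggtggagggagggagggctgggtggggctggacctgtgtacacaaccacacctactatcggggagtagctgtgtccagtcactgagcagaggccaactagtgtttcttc
Anxa1 promoter: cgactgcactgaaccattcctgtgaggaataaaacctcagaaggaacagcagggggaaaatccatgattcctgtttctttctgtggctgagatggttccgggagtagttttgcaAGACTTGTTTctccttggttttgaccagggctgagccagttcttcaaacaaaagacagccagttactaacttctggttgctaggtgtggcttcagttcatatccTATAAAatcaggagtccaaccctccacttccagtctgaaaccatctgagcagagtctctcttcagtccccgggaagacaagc
Anxa2 promoter: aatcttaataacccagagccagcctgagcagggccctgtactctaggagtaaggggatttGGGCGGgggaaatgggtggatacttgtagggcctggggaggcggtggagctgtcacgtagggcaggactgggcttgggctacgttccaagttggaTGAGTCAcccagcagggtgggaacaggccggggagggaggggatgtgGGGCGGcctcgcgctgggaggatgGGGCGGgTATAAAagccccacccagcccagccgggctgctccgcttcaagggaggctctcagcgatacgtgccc
The Anxa8 window held none of the 4 motifs. The Anxa1 window held 1 TATA box, starting at position -32 from the start site, and 1 p53 half-site at -136. The Anxa2 window held 1 TATA box at -17, 3 GC boxes and 1 AP-1 site at -95. Of 32851 mouse promoter windows of this length, 13.6% held the TATA box, 35.7% the GC box, 7.81% the AP-1 site and 8.36% the p53 half-site. Windows were found for 7 of the 9 members, 9 windows in all, and a TATA box lay only in those of Anxa1 and Anxa2. The windows of Anxa7 and Anxa11 and 1 of the 2 windows of Anxa4 held GC boxes and no other of these motifs, and the other Anxa4 window and that of Anxa5 held none. Anxa3 and Anxa6 had no window. A match is a run of letters and not a measured binding site, and its absence says nothing of a factor.

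Most of the 9 members were higher in cells without Pak1, and Anxa8 stood out by size. In KO against WT cells, 7 of the 9 annexins passed an adjusted p of 0.05 in limma (43.2% of all probe sets did). Anxa1, Anxa3, Anxa6, Anxa7, Anxa8 and Anxa11 were higher in KO cells, against a background of 21.5% of all probe sets, and Anxa4 was lower, against 21.7%. In KO-IR against WT-IR cells the same 7 genes passed in the same directions, beside 44.6% of all probe sets, 23.4% higher and 21.2% lower. The arrays of KO and WT cells did not overlap for 8 of the 9 annexins (51.1% of all probe sets), and those of KO-IR and WT-IR cells did not for 7 (51.8%). The pair of genotype comparisons share no arrays, but the fit gave all groups a common estimate of the spread. A difference between the KO and WT lines would recur in both, so the second is no independent check of the genotype. The median log2 fold change of the 9 members was 0.38 in KO against WT cells, where that of all probe sets was -0.02, and 0.36 in KO-IR against WT-IR cells, where that of all probe sets was 0.01. Anxa8 was the only member that also passed a 2-fold change, which 4.42% of all probe sets did in KO against WT cells and 5.06% in KO-IR against WT-IR cells.

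**Figure D1:**
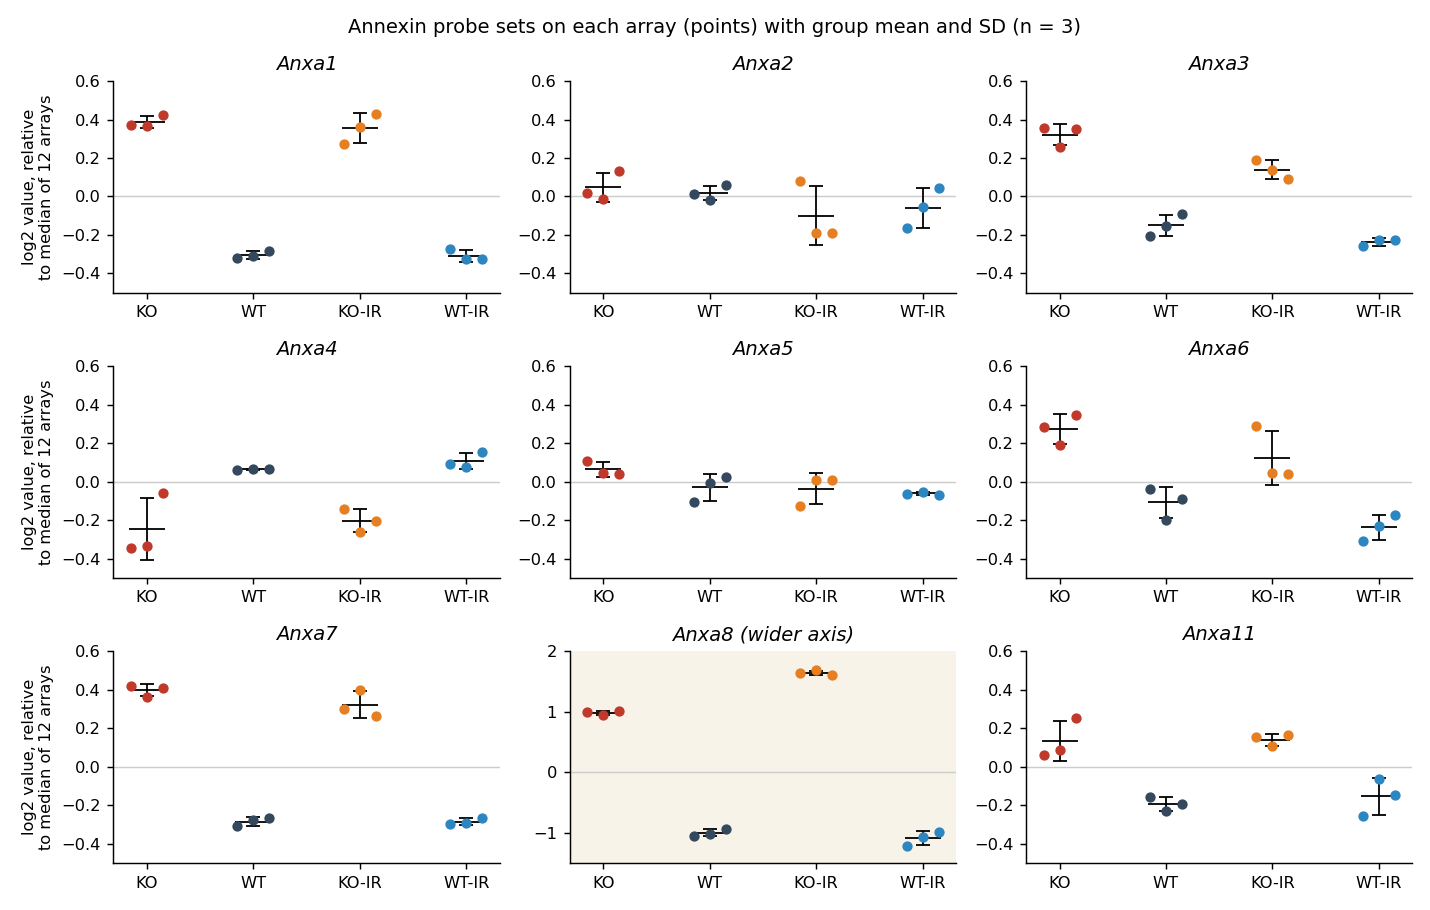
Log2 values of the 9 annexin probe sets on each array (points), relative to the median of the 12 arrays, with the mean and SD of the 3 arrays of a group (lines); the Anxa8 panel has a wider axis. The KO-IR arrays of Anxa8 lie between 1.62 and 1.68, above the KO arrays at 0.94 to 1.01, and the highest of the 6 WT and WT-IR arrays lies at -0.94.

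Anxa8 encodes an annexin known mainly from epithelia and, in human endothelial cells, from the organisation of late endosomes. It stood at 1.00, 0.94 and 1.01 in KO cells, against -1.05, -1.02 and -0.94 in WT cells. In KO-IR cells it stood at 1.64, 1.68 and 1.62, against -1.22, -1.06 and -0.99 in WT-IR cells. The 6 knock-out arrays were thus all far above the 6 wild-type arrays, with no overlap and a spread within each group of 0.04 to 0.12 (SD, n = 3). The level was 3.96-fold higher in KO than in WT cells (log2 fold change 1.99, SE 0.06, adjusted p = 7.7e-11 in limma) and 6.67-fold higher in KO-IR than in WT-IR cells (log2 fold change 2.74, SE 0.06, adjusted p = 5.91e-12). Among all 16755 probe sets it ranked 94 from the top in the untreated comparison and 49 in the irradiated one. Of the epithelial genes measured as markers, Krt19, a keratin, was likewise higher in KO cells, by 2.77 on the log2 scale in KO against WT cells and by 2.97 in KO-IR against WT-IR cells, and Epcam, an adhesion molecule of epithelia, was higher by 0.26 and 0.38. The other 7 of the 9 measured epithelial markers, including Cdh1, Krt14 and Krt18, passed in neither comparison. Of all probe sets, 43.2% passed in KO against WT cells and 44.6% in KO-IR against WT-IR cells. The mean of the 9 epithelial markers lay at 0.146 to 0.197 on the KO arrays, -0.125 to -0.101 on the WT arrays, 0.104 to 0.202 on the KO-IR arrays and -0.226 to -0.182 on the WT-IR arrays. Krt19 is among the 9 and carries this mean: the median log2 fold change of the list was -0.03 in KO against WT cells and -0.001 in KO-IR against WT-IR cells. Msln, a mesothelial surface protein, was higher by 1.10 in KO against WT cells and by 1.00 in KO-IR against WT-IR cells, while Lrrn4, another of the 5 mesothelial markers, was lower by a log2 fold change of -0.12 in KO against WT cells (adjusted p = 0.0466), and the other 3 passed in neither. The part of these markers in the Anxa8 difference was not tested. In RNA of whole cultures, more cells that express a gene and more RNA per cell cannot be told apart.

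Anxa1 and Anxa7 had the next largest differences. Anxa1 encodes a glucocorticoid-regulated protein that acts on formyl peptide receptors to dampen inflammation and is also a substrate of growth factor receptor kinases. It stood at 0.37, 0.36 and 0.42 in KO cells, against -0.32, -0.31 and -0.28 in WT cells, and at 0.27, 0.36 and 0.43 in KO-IR cells, against -0.27, -0.33 and -0.33 in WT-IR cells. The knock-out arrays lay above the wild-type arrays without overlap in both comparisons. Anxa1 was 1.62-fold higher in KO than in WT cells (log2 fold change 0.69, SE 0.04, limma adjusted p = 6.22e-08) and 1.58-fold higher in KO-IR than in WT-IR cells (0.66, SE 0.04, adjusted p = 7.92e-08). Anxa7, also called synexin and known for promoting the fusion of secretory granules, stood at 0.42, 0.36 and 0.41 in KO cells, against -0.31, -0.28 and -0.27 in WT cells. In irradiated cells it stood at 0.30, 0.40 and 0.27 in KO-IR, against -0.30, -0.29 and -0.27 in WT-IR. These groups did not overlap either, and the folds were 1.60 in KO over WT cells (adjusted p = 4.45e-08) and 1.52 in KO-IR over WT-IR cells (adjusted p = 1.11e-07). Neither gene reached 2-fold.

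Anxa3, Anxa6 and Anxa11 were higher by smaller steps. Anxa3, an annexin of neutrophil granules and of several epithelia, stood at 0.36, 0.26 and 0.35 in KO cells, against -0.20, -0.15 and -0.09 in WT cells. In irradiated cells it stood at 0.19, 0.14 and 0.09 in KO-IR, against -0.26, -0.23 and -0.22 in WT-IR. The groups did not overlap in either comparison, with log2 fold changes of 0.47 in KO against WT cells (SE 0.04, limma adjusted p = 2.15e-06) and 0.38 in KO-IR against WT-IR cells (SE 0.04, adjusted p = 1.38e-05). Anxa6, whose protein has a doubled core and is tied to cholesterol and endosome traffic, stood at 0.29, 0.19 and 0.35 in KO cells, against -0.04, -0.20 and -0.09 in WT cells. In irradiated cells it stood at 0.29, 0.04 and 0.04 in KO-IR, against -0.31, -0.23 and -0.18 in WT-IR. One KO-IR array, replicate 1, was thus well above the other two, yet all 3 lay above the WT-IR arrays. Its log2 fold changes were 0.38 (SE 0.07, adjusted p = 0.000815) in KO against WT cells and 0.36 (SE 0.07, adjusted p = 0.00115) in KO-IR against WT-IR cells. Anxa11, which in neurons tethers RNA granules to lysosomes, stood at 0.06, 0.09 and 0.25 in KO cells, against -0.16, -0.23 and -0.19 in WT cells. In irradiated cells it stood at 0.15, 0.11 and 0.16 in KO-IR, against -0.25, -0.06 and -0.15 in WT-IR. The Anxa11 groups did not overlap, with log2 fold changes of 0.33 (SE 0.06, adjusted p = 0.000544) in KO against WT cells and 0.30 (SE 0.06, adjusted p = 0.00112) in KO-IR against WT-IR cells.

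Anxa4 was the member that was lower in the knock-out. Its protein is an epithelial annexin of apical membranes that has been linked to ion channel regulation. It stood at -0.35, -0.33 and -0.06 in KO cells, against 0.06, 0.07 and 0.06 in WT cells, and at -0.14, -0.26 and -0.21 in KO-IR cells, against 0.09, 0.07 and 0.15 in WT-IR cells. The groups did not overlap, but KO replicate 3 lay close to the WT arrays. The log2 fold change was -0.31 (SE 0.07) in both comparisons, which is 0.807 of the wild-type level (limma adjusted p = 0.00231 for KO against WT cells and 0.0022 for KO-IR against WT-IR cells). With the methods' t-test the first of these was no longer called (adjusted p = 0.0744). Without KO replicate 3 the log2 fold change was -0.40.

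Anxa2 and Anxa5 did not pass in either genotype comparison. Anxa2 encodes the annexin that pairs with the S100 protein p11 and serves as a cell-surface site of plasminogen activation. It stood at 0.02, -0.01 and 0.13 in KO cells, against 0.01, -0.02 and 0.06 in WT cells, and at 0.08, -0.19 and -0.19 in KO-IR cells, against -0.17, -0.06 and 0.04 in WT-IR cells. The groups overlapped in both comparisons. The log2 fold change was 0.03 in KO against WT cells, with a 95% interval of -0.14 to 0.19 (limma adjusted p = 0.815), and -0.04 in KO-IR against WT-IR cells, with an interval of -0.21 to 0.12 (adjusted p = 0.752). Anxa5, the annexin whose binding to exposed phosphatidylserine is used to stain dying cells, stood at 0.11, 0.04 and 0.04 in KO cells, against -0.11, -0.01 and 0.03 in WT cells. These arrays did not overlap, but the difference was small. It came to 0.09 on the log2 scale (interval -0.01 to 0.20, limma adjusted p = 0.15), and to 0.02 in KO-IR against WT-IR cells (interval -0.08 to 0.13, adjusted p = 0.769). Both intervals leave out a change of 1.5-fold in either direction.

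**Figure D2:**
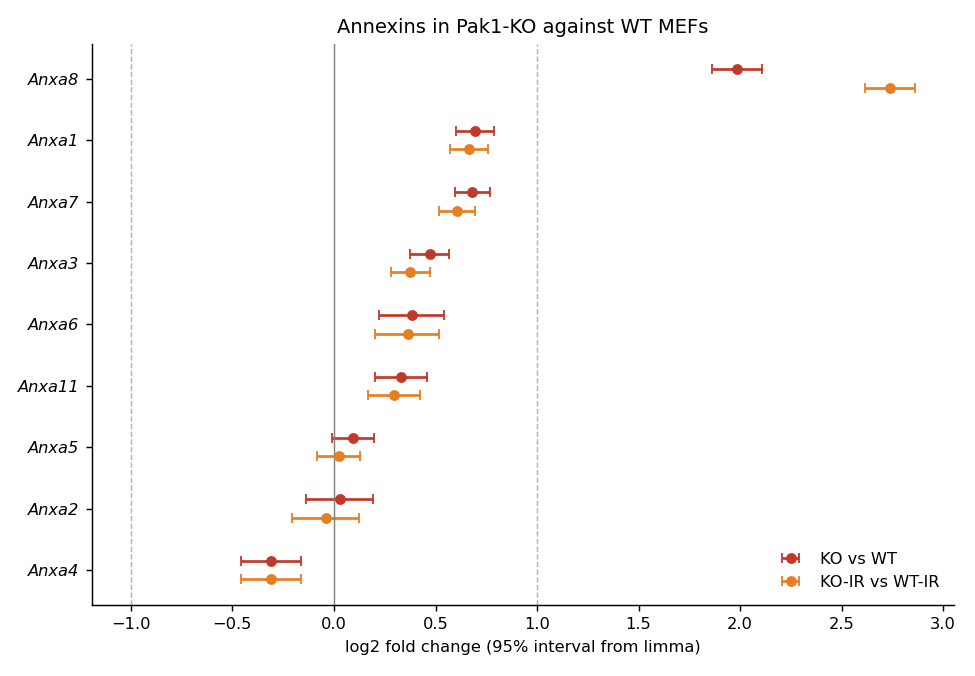
Log2 fold changes of the 9 annexins in KO against WT cells (upper point of each pair) and in KO-IR against WT-IR cells (lower point), with 95% intervals from limma; dashed lines mark 2-fold. Anxa8 lies beyond 2-fold at 1.99 and 2.74, 5 members lie between 0.29 and 0.70, Anxa4 lies at -0.31 in both, and the intervals of Anxa5 and Anxa2 cross 0.

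After irradiation, none of the 9 annexins passed in wild-type cells and 2 passed in knock-out cells. In WT-IR against WT cells, none of the 9 passed the adjusted p in limma, where 2.48% of all probe sets did. None passed at an unadjusted p of 0.05 either, where 18% of all probe sets did. The methods' t-test called 1 of all 16755 probe sets in this comparison and none of the 9. The member nearest to it was Anxa3 (log2 fold change -0.09, interval -0.18 to 0.01, unadjusted p = 0.0688, adjusted p = 0.322). Log2 fold changes of the 9 ran between -0.13 for Anxa6 and 0.04 for Anxa4. In KO-IR against KO cells, 2 of the 9 passed the adjusted p, beside 6.3% of all probe sets: Anxa8 was higher (3.38% of all probe sets were) and Anxa3 was lower (2.92%). The arrays did not overlap for Anxa3, Anxa5 and Anxa8 in KO-IR against KO cells, 3 of 9 beside 20.4% of all probe sets, and for Anxa3 and Anxa4 in WT-IR against WT cells, 2 of 9 beside 28.6%. Neither Anxa8 nor Anxa3 reached 2-fold, which 0.143% of all probe sets did. The 2 irradiation comparisons share no arrays with each other, but each shares arrays with both genotype comparisons.

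Anxa8 was 1.59-fold higher in KO-IR than in KO cells (log2 fold change 0.67, interval 0.54 to 0.79, limma adjusted p = 3.37e-05), with all 3 KO-IR arrays above all 3 KO arrays, and ranked 56 from the top of all probe sets. In WT-IR against WT cells its log2 fold change was -0.09 (interval -0.21 to 0.04, adjusted p = 0.462) and the arrays overlapped. The order of the groups was KO-IR, KO, WT and WT-IR from high to low, of which WT and WT-IR did not differ beyond their spread. The difference between the responses of the genotypes, the interaction, was 0.75 on the log2 scale (SE 0.08, interval 0.58 to 0.93, adjusted p = 0.000565), a 1.68-fold larger ratio of irradiated to untreated cells in the knock-out. Anxa8 was the only annexin called in the interaction, beside 1.37% of all probe sets. The values are centred, so it is unknown whether Anxa8 in WT and WT-IR cells lay near the background, where a change could not show. After quantile normalization its change in KO-IR against KO cells was 0.39 (adjusted p = 0.00186) and its interaction 0.42 (adjusted p = 0.0311). Krt19, the epithelial keratin, had a log2 fold change of -0.21 in KO-IR against KO cells (adjusted p = 0.108) and Epcam had 0.15 (adjusted p = 0.0868). In WT-IR against WT cells, 1 of the 9 measured epithelial markers was called lower and none higher, beside 2.48% of all probe sets called. Krt19 averaged -1.29 in WT and -1.70 in WT-IR cells. Of the 5 mesothelial markers, 1 was called lower and none higher in KO-IR against KO cells, where 2.92% of all probe sets were lower. Msln averaged 0.75 in KO and 0.42 in KO-IR cells. The relation of these changes to Anxa8 was not tested.

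Anxa3 was lower in KO-IR than in KO cells by a small amount (log2 fold change -0.18, interval -0.28 to -0.09, limma adjusted p = 0.0291), without overlap of the arrays. The call was lost with the methods' t-test (adjusted p = 0.22), with only the compared groups in the fit (0.122), after quantile normalization (0.0521), and without KO replicate 1, KO replicate 3, KO-IR replicate 2 or KO-IR replicate 3, where the highest adjusted p was 0.113. Its interaction was -0.09 (interval -0.23 to 0.04, adjusted p = 0.628). Log2 fold changes of the 7 other annexins in KO-IR against KO cells ran between -0.15 for Anxa6 and 0.04 for Anxa4. Anxa2, at -0.15, and Anxa6 passed when KO-IR replicate 1 was left out, with adjusted p of 0.0399 and 0.0409. On that array both genes stood above the other KO-IR arrays.

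**Figure D3:**
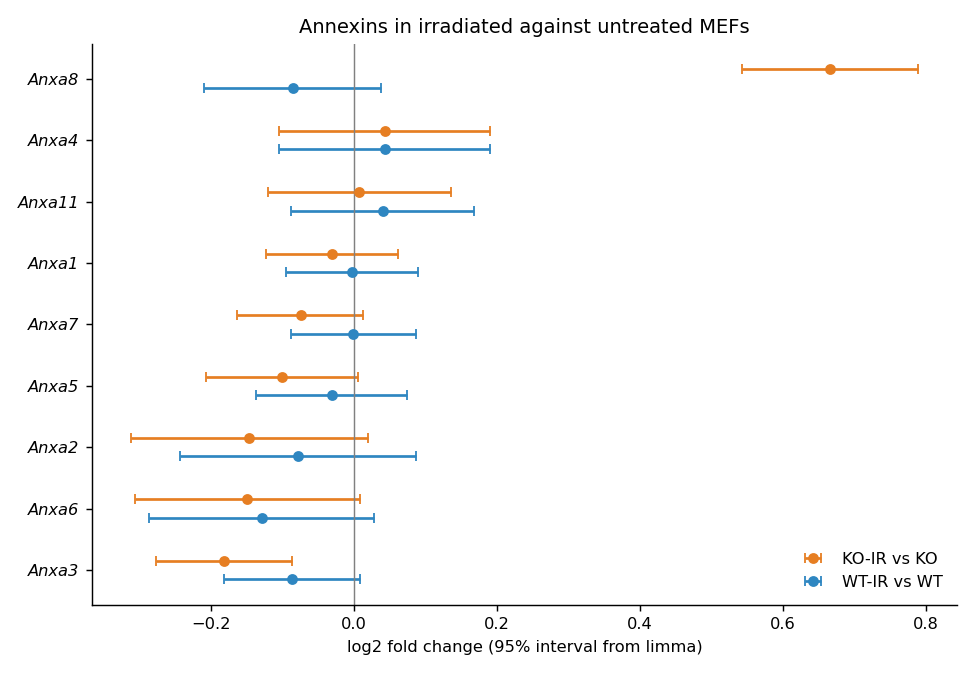
Log2 fold changes of the 9 annexins in KO-IR against KO cells (upper point of each pair) and in WT-IR against WT cells (lower point), with 95% intervals from limma. Anxa8 in KO-IR against KO cells stands alone at 0.67; the next largest change in size is that of Anxa3 in the same comparison, at -0.18.

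None of the 6 nearest measured genes around Anxa8 on chromosome 14 passed the test where Anxa8 did. On one side lie Rbp3, a retinoid-binding protein gene, Zfp488, a zinc finger gene, and Antxrl, and on the other Npy4r, a neuropeptide receptor gene, Syt15, a synaptotagmin gene, and Glud1, which encodes glutamate dehydrogenase. Their log2 fold changes lay between -0.16 for Zfp488 and 0.02 for Npy4r in KO against WT cells, and between -0.06 for Syt15 and 0.10 for Zfp488 in KO-IR against WT-IR cells. The lowest adjusted p of the 6 in limma was 0.0883, for Rbp3 in KO against WT cells, where Rbp3 and Zfp488 had unadjusted p of 0.0415 and 0.0499; none of the 6 was under 0.05 unadjusted in KO-IR against WT-IR cells. In KO-IR against KO cells the 6 lay between -0.06 and 0.07.

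**Figure D4:**
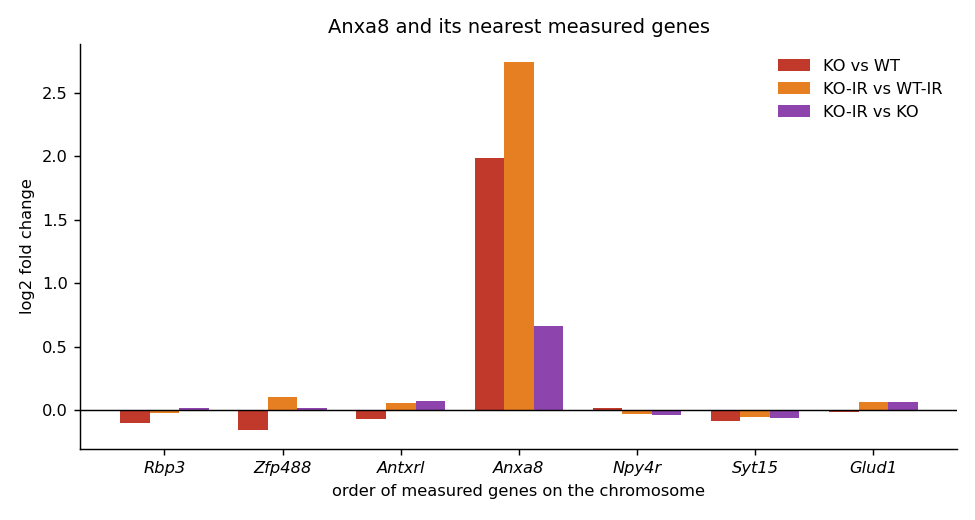
Log2 fold changes of Anxa8 and of the 3 nearest measured genes on each side, in order along chromosome 14, for KO against WT, KO-IR against WT-IR and KO-IR against KO cells (bars, no error shown). The bars of Anxa8 reach 1.99, 2.74 and 0.67, and no bar of a neighbour goes beyond -0.16 or 0.10.

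Group means of Anxa8 and Anxa1 had the widest ranges of the family, 2.74 and 0.70 on the log2 scale, and the probe sets most like them were looked up over the 12 arrays. The patterns nearest to Anxa8 were those of Notch1, a receptor of cell-to-cell signalling (Pearson r = 0.998), Pnp, a purine salvage enzyme (0.997), Sash1, a signalling scaffold (0.996), Cep170b (0.996) and Abhd4, a lipid hydrolase (0.995). Notch1 averaged 0.55 in KO and -0.55 in WT cells, and 1.00 in KO-IR and -0.65 in WT-IR cells. It thus had the same order of groups as Anxa8, on a narrower scale. Sash1 averaged 1.06 in KO and -1.14 in WT cells, and 1.51 in KO-IR and -1.14 in WT-IR cells. The interaction of Notch1 was 0.555 (limma adjusted p = 0.000354) and that of Abhd4 0.466 (adjusted p = 0.00819). Sash1 had 0.443 (adjusted p = 0.0446) and Cep170b 0.32 (adjusted p = 0.0166), while Pnp, at 0.208, was not called (adjusted p = 0.106). These genes were picked for likeness to Anxa8 on the same arrays. The patterns nearest to Anxa1 were those of 3830406C13Rik (0.998), Il10rb, a cytokine receptor subunit (0.997), Gsdmd, the pore-forming protein of pyroptosis (0.997), Reep5 (0.997) and Sgk3, a kinase (0.997). Gsdmd averaged 0.94 in KO and -0.83 in WT cells, and 0.86 in KO-IR and -0.87 in WT-IR cells. These correlations describe arrays that share the split into genotypes: 995 of 14995 probe sets correlated with Anxa8 above 0.95, and 1190 did with Anxa1.

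Partners and relatives of the annexins were called in both directions, and their counts are set beside the shares of all probe sets, 21.5% higher and 21.7% lower in KO than in WT cells and 23.4% higher and 21.2% lower in KO-IR than in WT-IR cells. Of 11 measured S100 proteins, small calcium-binding proteins several of which bind annexin heads, 4 were higher and 1 was lower in KO than in WT cells, and 3 were higher and 1 lower in KO-IR than in WT-IR cells. The 5 and 4 called of 11 were near the 43.2% and 44.6% of all probe sets. S100a1, best known from muscle, stood at 1.41, 1.35 and 1.52 in KO cells, against -1.18, -1.14 and -1.02 in WT cells. The arrays were far apart, with log2 fold changes of 2.54 in KO against WT cells (SE 0.10, limma adjusted p = 8.72e-10) and 2.49 in KO-IR against WT-IR cells (SE 0.10, adjusted p = 8.67e-10). S100a13, which takes part in the release of growth factors without a signal peptide, was higher by 0.99 in KO against WT cells and 0.98 in KO-IR against WT-IR cells, and S100a3 was lower, at -0.84 and -0.88 in the same comparisons. S100a10, the partner of annexin A2, is named for that role and not for its values. It stood at 0.12, 0.04 and 0.06 in KO cells, against -0.10, -0.14 and -0.10 in WT cells. Its log2 fold change was 0.19 in KO against WT cells (adjusted p = 0.018), and 0.07 in KO-IR against WT-IR cells, where it did not pass (adjusted p = 0.41). The median log2 fold change of the S100 list was 0.06 in both comparisons.

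Plasminogen activation was followed as a process that annexin A2 assists. Of 4 measured genes of 6 listed, 3 were higher in both genotype comparisons, where 21.5% and 23.4% of all probe sets were, and 1 was not called. Plau, which encodes urokinase, stood at 0.77, 0.65 and 0.82 in KO cells, against -0.70, -0.70 and -0.65 in WT cells. In irradiated cells it stood at 1.01, 0.91 and 0.92 in KO-IR, against -0.71, -0.70 and -0.86 in WT-IR. The groups did not overlap, and the log2 fold changes were 1.43 in KO against WT cells (SE 0.06, limma adjusted p = 1.1e-09) and 1.70 in KO-IR against WT-IR cells (SE 0.06, adjusted p = 2.07e-10). Plat, the tissue-type activator, was higher by 0.59 in KO against WT cells and 0.55 in KO-IR against WT-IR cells, and Plaur, the urokinase receptor, by 0.29 and 0.33 in the same comparisons. The list median was 0.44 in both, beside the member median of 0.38 and 0.36.

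Receptors and lipid enzymes on the route of annexin A1 were represented by 3 of 7 listed genes, and none of the formyl peptide receptors was among them. Ptgs2, the inducible cyclooxygenase, stood at 0.62, 0.61 and 0.63 in KO cells, against -1.08, -1.24 and -1.20 in WT cells. In irradiated cells it stood at 0.75, 1.00 and 0.86 in KO-IR, against -0.66, -0.61 and -0.76 in WT-IR. It was higher by 1.79 in KO against WT cells (limma adjusted p = 5.94e-10) and by 1.55 in KO-IR against WT-IR cells (adjusted p = 1.87e-09). It was also higher after irradiation, by 0.49 in WT-IR against WT cells (adjusted p = 0.00356) and by 0.25 in KO-IR against KO cells (adjusted p = 0.0418). Both of these calls were lost with the methods' t-test, at adjusted p of 0.101 and 0.283. The call in KO-IR against KO cells was also lost with only the compared groups in the fit (0.108), after quantile normalization (log2 fold change 0.13, 0.223), with arrays centred (0.0539) and with 9 of the 12 single arrays left out, where the highest adjusted p was 0.134 without KO-IR replicate 2. Pla2g4a, the cytosolic phospholipase, had a log2 fold change of 0.15 in KO against WT cells (adjusted p = 0.0112, and 0.0668 with the methods' t-test) and of 0.09 in KO-IR against WT-IR cells (adjusted p = 0.124), and Alox5, the lipoxygenase of leukotriene synthesis, had 0.04 and 0.01 in the same comparisons and did not pass.

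Among 16 measured genes of plasma membrane repair, 6 were higher and 7 lower in KO than in WT cells, and 7 were higher and 6 lower in KO-IR than in WT-IR cells, beside 21.5% higher and 21.7% lower of all probe sets in the first comparison and 23.4% and 21.2% in the second. The list medians were -0.02 and -0.01. Capn1, a calcium-activated protease that cuts repair proteins, was higher by 1.01 on the log2 scale in KO against WT cells and by 0.95 in KO-IR against WT-IR cells. Smpd1, the acid sphingomyelinase released at wounds, was higher by 0.70 and 0.93 in the same comparisons. Dysf, which encodes dysferlin, was lower in them, at -0.67 and -0.72. Cav1, the caveolin gene, was the 1 gene of this list called after irradiation and is named for that reason, at -0.16 in KO-IR against KO cells (limma adjusted p = 0.0415) and -0.16 in WT-IR against WT cells (adjusted p = 0.07). The Cav1 call was lost in a fit of only the compared groups, with the methods' t-test, after quantile normalization and with any of 8 single arrays left out: KO replicates 1, 2 and 3, WT replicates 2 and 3, KO-IR replicate 3 and WT-IR replicates 2 and 3.

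Copines and other proteins with C2 domains, the second large group that binds phospholipid with calcium, had called genes in both directions, beside 43.2% and 44.6% of all probe sets called: of 14 measured, 3 were higher and 4 lower in KO than in WT cells, and 4 were higher and 4 lower in KO-IR than in WT-IR cells. Esyt1, a tether between endoplasmic reticulum and plasma membrane, was higher by 2.14 in the untreated and 2.19 in the irradiated comparison (limma adjusted p = 2.13e-11 and 1.42e-11), Cpne2 was higher by 0.81 and 0.86, and Cpne8 was lower, at -1.84 and -1.82. The list medians were -0.05 and 0.05. Of the annexin genes outside the rule, Anxa9, Anxa10 and Anxa13, none was called in limma in any of the 5 contrasts; at an unadjusted p under 0.05, Anxa9 passed in both genotype comparisons and Anxa13 in WT-IR against WT cells. Their log2 fold changes in KO against WT cells were -0.11, -0.04 and -0.09, and those in KO-IR against WT-IR cells were -0.12, -0.01 and 0.05.

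**Figure D5:**
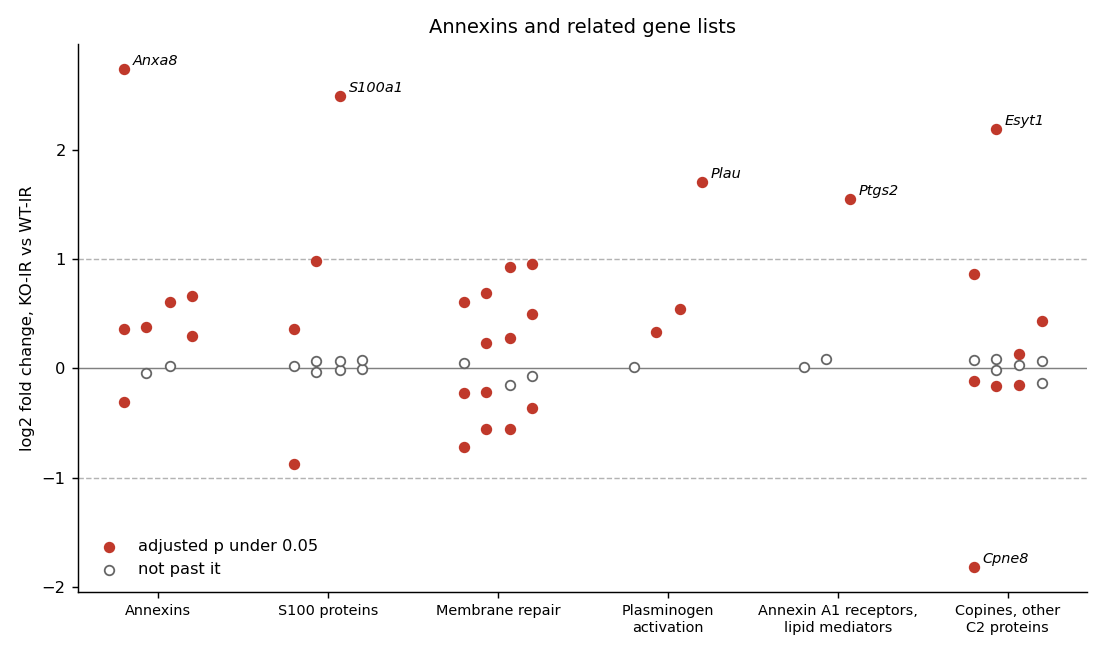
Log2 fold changes in KO-IR against WT-IR cells of the annexins and of the related gene lists; filled points passed an adjusted p of 0.05 and dashed lines mark 2-fold. Anxa8 at 2.74, S100a1 at 2.49, Esyt1 at 2.19, Plau at 1.70 and Ptgs2 at 1.55 lie above the upper line, and Cpne8 at -1.82 lies below the lower one.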

How the data were processed

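Each of the 12 RNA samples was hybridised to 1 Affymetrix Mouse Exon 1.0 ST array. The authors used GeneSpring GX for normalization, and their deposited log2 values had been centred per probe set (medians within 5e-07 of 0). Neither the summarization nor the background step is named in the labels or methods. No raw image data were used and nothing was normalized further.

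The fit used limma 3.58.1 under R 4.3.3, with lmFit and default eBayes on all 16755 probe sets and a mean for each of the 4 groups (residual degrees of freedom 8, prior 3.48). Within a contrast, the Benjamini-Hochberg adjustment covered every probe set. Calls required an adjusted p under 0.05, and the 2-fold threshold follows the methods of the study. The number of arrays limits the precision, and the centring leaves no filter on dim probe sets. Probe sets of 1 symbol numbered 14996, those of several 1019 and those of none 740.

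The members and the lists (S100 proteins, plasma membrane repair, plasminogen activation, annexin A1 receptors with lipid enzymes, copines with C2 proteins, other annexins, and cell type markers) were chosen with earlier results of these data known. Named were the 9 members, the 3 genes of each list with the smallest adjusted p in KO-IR against WT-IR cells, the 5 probe sets most correlated with each of 2 members, and the 3 neighbours on each side of a member called at 2-fold. Some cell type markers are also named beside a result, among them ones that moved with it and ones that did not. Of 8 listed macrophage genes 6 were measured and of 5 listed endothelial genes 5. In KO against WT cells 1 macrophage gene was lower and 1 endothelial gene higher, beside 43.2% of all probe sets called. In KO-IR against WT-IR cells 1 macrophage gene was higher, 1 macrophage gene lower and 1 endothelial gene higher, beside 44.6%. Promoters and gene order come from RefSeq (GRCm38.p6).

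Alternatives were the methods' t-test, a fit of only the compared groups, the replicate number as a block, quantile normalization, centring of arrays, robust eBayes, probe sets of 1 symbol, a 1.5-fold threshold and each array left out in turn. Those for all probe sets and for the lists were added after the data were seen. The fit was tested on simulated data with independent noise and far fewer changed probe sets than were called between the genotypes. That test checks the calculation only, and no result rests on it. Plots were made with matplotlib 3.10.9 (Python 3.11.15).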

Additional observations from a re-analysis of the deposited data

Results flagged for a closer look

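The change of Anxa8 with irradiation differed between the genotypes by 0.751 on the log2 scale in limma's test of that difference (SE 0.08, adjusted p = 0.000565), higher in 3 of 3 KO-IR arrays than in any KO array, while WT-IR and WT arrays overlapped. With each array left out in turn it ran between 0.687 and 0.803, and after quantile normalization it was 0.42 (adjusted p = 0.0311). Whether the signal of Anxa8 in WT and WT-IR cells lay near the background cannot be seen in centred values.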

How the results depend on the processing

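The 7 annexins called in each genotype comparison were counted as 7 under every alternative except the methods' t-test in KO against WT cells, where 6 passed. Replicate numbers did not pair the arrays: deviations of same-numbered arrays correlated at -0.144 to 0.211 over 18 pairs, 3 of them over 0.1, and 4 of 12 arrays correlated best with their own number. With the replicate block, 1 annexin in place of 2 was called in KO-IR against KO cells (Anxa3 had an adjusted p of 0.0562), and no other count of annexins changed. Under the block Ptgs2 was no longer called in KO-IR against KO cells either (adjusted p = 0.0647). That count was also 1 for the methods' t-test, in a fit of only the 2 groups compared and after quantile normalization, and ran between 1 and 4 with an array left out, 4 of them without KO-IR replicate 1. At 1.5-fold, 3 annexins were called in KO against WT cells, 3 in KO-IR against WT-IR cells, 1 in KO-IR against KO cells and 1 in the interaction.

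Changes of sign met only values that were not called. Anxa1 in WT-IR against WT cells came to 0.036 after quantile normalization and 0.014 with arrays centred, and Anxa7 to 0.039 and 0.016. The Anxa4 interaction came to -0.039 and -0.015 with these settings. With each array left out in turn, Anxa2 ran between -0.014 and 0.057 in KO against WT cells and between -0.129 and 0.011 in KO-IR against WT-IR cells, where Alox5 ran between -0.007 and 0.024, Anxa13 between -0.013 and 0.097 and Anxa10 between -0.025 and 0.013. In WT-IR against WT cells Anxa1 ran between -0.02 and 0.008, Anxa7 between -0.013 and 0.008 and Anxa11 between -0.006 and 0.09. In KO-IR against KO cells Anxa1 ran between -0.068 and 0.009, Anxa4 between -0.008 and 0.136 and Anxa11 between -0.029 and 0.067. Interactions ran between -0.065 and 0.012 for Anxa1, -0.05 and 0.094 for Anxa4, -0.102 and 0.025 for Anxa6 and -0.083 and 0.026 for Anxa11. Over all probe sets, the methods' t-test called 1 in WT-IR against WT cells, where limma called 416, and 100 in KO-IR against KO cells, where limma called 1056 and a fit of only those groups 447. With each array left out in turn, limma called 128 (without WT-IR replicate 2) to 668 (without KO-IR replicate 1) in WT-IR against WT cells, 584 (without KO replicate 1) to 1545 in KO-IR against KO cells and 133 (without WT-IR replicate 2) to 267 in the interaction. The cause of these moves was not tested.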
